A study of Mus musculus with 6 samples.

Results

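The transcripts of 40 mouse genes for antioxidant, peroxiredoxin and glutathione proteins were followed in heart muscle cell preparations from mice injected with α-ketoglutarate (AKG, an intermediate of the tricarboxylic acid cycle) and from mice injected with phosphate-buffered saline. The members were the rows of the deposited table whose gene symbol stood on a given list of antioxidant genes. All 40 were found, once each, among 22063 genes, and all 40 passed the filter on low counts that kept 13117 genes. The AKG group was wild-type mice given 300 mg per kg per day for 2 weeks, and the Control group was wild-type mice given the saline for 2 weeks. The labels name postnatal day 21 for the injected mice and for the hearts, so the ages at which injections began and ended are not clear. Cells were isolated by the Langendorff method, in which the heart is perfused through its vessels, and mRNA libraries were sequenced, 3 per group. The labels do not say how many mice went into a library, so the p-values measure only the spread between these libraries.

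Superoxide dismutases turn superoxide, a by-product of respiration, into hydrogen peroxide. Catalase, glutathione peroxidases and peroxiredoxins remove the peroxide, with electrons passed on from NADPH through glutathione or thioredoxin. Mitochondria and cytosol hold separate sets of these enzymes, and the heart, rich in mitochondria, depends on both. The transcription factor NRF2, encoded by Nfe2l2, is held back by KEAP1 and, when released, switches on many of the cytosolic genes through a DNA sequence called the antioxidant response element.

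Levels are given as CPM, read counts scaled to library size, and a level compared between genes is given as FPKM, which is also scaled to transcript length. Library totals were 14402875 to 15315233 counts in AKG and 16241111 to 17797348 in Control. None of 10 heart muscle markers was at 0, and 9 of them (90%) were lower in AKG, beside 25.2% of all tested genes. Their summed level was 31971 to 35923 CPM in AKG against 69880 to 76147 CPM in Control. The atrial transcript Sln read 42.8, 0.186 and 28.8 CPM in the AKG libraries 1 to 3, against at most 0.476 CPM in the Controls, so AKG 1 and AKG 3 stood apart from AKG 2. Across 4 Y-linked genes the sum was 89.2, 50.4 and 39.0 CPM in the AKG libraries, against 168, 0.311 and 176 CPM in the Control libraries, so Control 2 stood apart from the other Controls. Mitochondrially encoded transcripts took 25.7 to 31.4% of the counts in AKG and 38.3 to 43.1% in Control. The choice of scaling moved the values. The scaling used was TMM, a trimmed mean of ratios between libraries, which put the median log2 fold change of all tested genes at 0.00, and plain total-count scaling put it at 0.45. A rise or fall below is relative to the bulk of genes. In these bulk samples fewer cells of a type and less RNA per cell cannot be told apart.

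Antioxidant transcripts were more often lower than higher in AKG preparations. Of the 40 members, 19 fell and 4 rose, and 17 did not pass the threshold, an adjusted p under 0.05 by the quasi-likelihood test of edgeR. Over all tested genes 25.2% fell and 25.0% rose, 50.2% in all, so the members that fell stood at 47.5% and those that rose at 10%. The median log2 fold change of the members was -0.28, and that of all tested genes was 0.00. The 3 AKG libraries lay below all 3 Controls for 22 members and above them for 4, while over all genes groups did not overlap for 59.2%, with AKG below in 29.9% and above in 29.4%. The falls were led by Prdx5, Glrx5, Gpx4, Txn2 and Srxn1, and the rises were of Mgst1, Gpx3, Hmox1 and Gclm. The members together took 0.269 to 0.286% of the counts in AKG and 0.272 to 0.286% in Control. Under total-count scaling, 11 members were lower and 17 higher, beside 1196 lower and 7431 higher of all genes. With AKG 2 alone against the Controls, the lone library was assumed to vary like the Controls. The median log2 fold change was then -0.25 for the members and -0.01 for all tested genes. Without Control replicate 2, 18 members were lower and 4 higher, beside 2903 lower and 2847 higher of all 13275 genes tested there. The call held in the same direction under every alternative run for 13 members. These were Sod2, Prdx1, Prdx3, Prdx5, Gpx4, Txn2, Glrx5, Srxn1, Nqo1 and Gstp1, which were lower, and Gpx3, Mgst1 and Hmox1, which were higher.

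**Figure D1:**
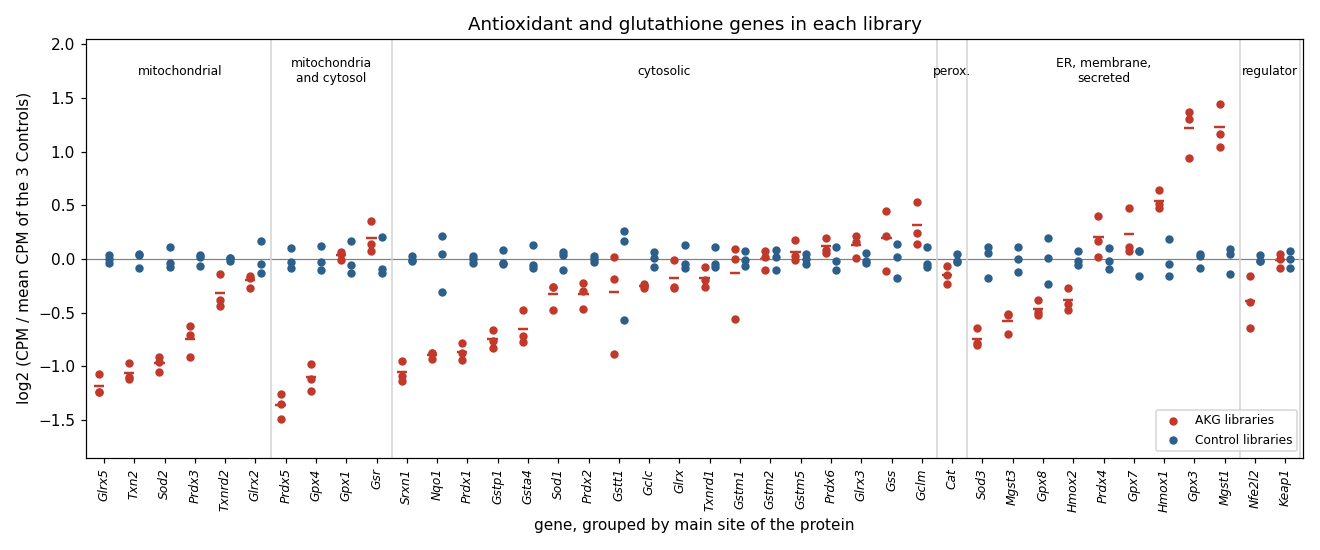
Level of each of the 40 members in the 3 AKG libraries (red, left) and the 3 Control libraries (blue, right), as log2 of CPM over the mean CPM of the Controls, with a bar at the log2 of the AKG mean; genes are grouped by the main site of their protein. All AKG points lie below all Control points for each of the 6 mitochondrial genes, while Gpx3, Mgst1 and Hmox1 lie above.

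Among the superoxide dismutases the mitochondrial enzyme changed most. Sod2, the manganese enzyme of the mitochondrial matrix, had 205, 225 and 218 CPM in AKG 1, 2 and 3, against 412, 401 and 457 CPM in Control 1, 2 and 3. The groups lay far apart, with every AKG value far below the lowest Control. Its log2 fold change was -0.97 (SE 0.0828, adjusted p = 7.31e-07). Sod1, the copper-zinc enzyme of the cytosol, had 142, 142 and 123 CPM in AKG libraries, against 179, 158 and 174 CPM in Control libraries. The groups did not overlap, but the gap between AKG 2 and Control 2 was narrow. Sod1 fell by 0.33 on the log2 scale (SE 0.0836, adjusted p = 0.00488), a direction that turned under total-count scaling (0.11, adjusted p = 0.243). Sod3, the secreted enzyme that binds to the cell surface and matrix, fell to 15.6 ± 0.924 CPM in AKG, against 26.1 ± 2.70 CPM in Control (SD, n = 3 each; log2 fold change -0.74, adjusted p = 7.24e-05). Limma on log2(FPKM + 1) did not call Sod3 (adjusted p = 0.0518). Cat, the catalase of peroxisomes, had 137, 130 and 146 CPM in AKG libraries, against 157, 150 and 150 CPM in Control libraries, and did not pass (adjusted p = 0.118). Without AKG replicate 3 it was called lower (log2 fold change -0.18, adjusted p = 0.0428), and under total-count scaling it was called higher (0.30).

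Peroxiredoxins, which reduce peroxides with a reactive cysteine, fell in 4 of 6 genes, and none of them rose. Over all tested genes 25.2% fell and 25.0% rose. Prdx5, found in mitochondria, peroxisomes and cytosol, had 104, 111 and 94.5 CPM in AKG libraries, against 261, 250 and 286 CPM in Control libraries. Each AKG value was below every Control value by a wide margin. It had the largest fall of the 40 members, 2.57-fold (log2 fold change -1.36, SE 0.0863, adjusted p = 5.87e-08). Of its annotated exon bases, 19.1% overlap Trmt112 on the opposite strand, and the strand setting of the counting is not given in the sources used here. Prdx3, the peroxiredoxin of the mitochondrial matrix, had 67.4, 77.5 and 82.5 CPM in AKG libraries and 121, 130 and 129 CPM in Control libraries. AKG 1 was the lowest library, and the groups did not overlap (log2 fold change -0.74, SE 0.0832, adjusted p = 8.2e-06).

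Prdx1, the cytosolic peroxiredoxin that is also an NRF2 target, had 112, 100 and 105 CPM in AKG libraries, against 193, 188 and 197 CPM in Control libraries. The 3 libraries of each group lay close together (log2 fold change -0.87, SE 0.074, adjusted p = 7.51e-07). Prdx1 and Sod1 share 29.5% and 23.1% of their 50-base words with other genes, and Prdx2 a similar share, so the split of their reads is uncertain. Prdx2, abundant in red cells, fell by 0.33 on the log2 scale (209 ± 17.5 CPM in AKG, 262 ± 5.39 CPM in Control, adjusted p = 0.00438), and stood at 0.12 under total-count scaling (adjusted p = 0.241). With AKG 2 alone against the Controls Prdx2 was not called (adjusted p = 0.0595). The summed level of 8 red cell markers was 1470 to 2127 CPM in AKG and 1389 to 1961 CPM in Control, and their part in the Prdx2 value was not tested. Prdx4, of the endoplasmic reticulum, and Prdx6, which uses glutathione, had log2 fold changes of 0.20 and 0.12 (adjusted p = 0.154 and 0.232). Prdx4 was called higher without AKG replicate 3 (0.29, adjusted p = 0.0396), and both were called higher under total-count scaling (0.65 and 0.56). Srxn1, the sulfiredoxin that repairs over-oxidised peroxiredoxins, had 6.01, 5.28 and 5.44 CPM in AKG libraries, against 11.8, 11.4 and 11.6 CPM in Control libraries. The Control libraries stood at about the same level as each other, all above the AKG libraries (log2 fold change -1.06, SE 0.137, adjusted p = 2.96e-05).

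Glutathione peroxidases, which spend glutathione to remove peroxides, moved apart. Several of them carry selenocysteine at the active site, encoded by an in-frame TGA codon. The coding stretches around that codon are shown to set the 3 selenoproteins beside the 2 members that use cysteine there. They were read from GENCODE M21 transcripts (GRCm38, sense strand, mouse chromosomes 9, 11, 10, 4 and 13 in the order given), with the codon of the active-site residue in capitals.
Gpx1: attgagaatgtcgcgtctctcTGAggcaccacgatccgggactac
Gpx3: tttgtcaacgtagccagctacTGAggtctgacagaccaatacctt
Gpx4: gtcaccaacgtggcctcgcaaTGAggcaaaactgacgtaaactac
Gpx7: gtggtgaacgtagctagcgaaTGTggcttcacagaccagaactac
Gpx8: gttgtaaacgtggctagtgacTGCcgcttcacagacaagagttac
Among the TGA genes Gpx3 rose, Gpx4 fell and Gpx1 did not pass, and among the cysteine-codon genes Gpx8 fell and Gpx7 did not pass.

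Gpx4, which protects membranes from lipid peroxides and is the main brake on ferroptosis, had 136, 150 and 126 CPM in AKG libraries, against 289, 275 and 321 CPM in Control libraries. All AKG libraries were below all Control libraries, and AKG 3 was the lowest (log2 fold change -1.10, SE 0.0896, adjusted p = 4.84e-07). Its transcript shares 61.7% of its 50-base words with the pseudogene Gpx4-ps2, so the split of reads between them is uncertain. Gpx3, the secreted peroxidase of plasma and matrix, had 221, 164 and 211 CPM in AKG libraries, against 88.5, 87.3 and 80.5 CPM in Control libraries. The lowest AKG library, AKG 2, was still well above the highest Control (log2 fold change 1.22, SE 0.106, adjusted p = 1.5e-06). With AKG 2 alone against the Controls the log2 fold change of Gpx3 was 0.94. Gpx1, the most general peroxidase of cytosol and mitochondria, stood at 62.9 ± 1.73 CPM in AKG and 61.4 ± 6.70 CPM in Control (adjusted p = 0.741), and was called higher under total-count scaling (0.48, adjusted p = 0.000395). Gpx8, of the endoplasmic reticulum, fell by 0.46 on the log2 scale (adjusted p = 0.00416), but in limma on log2(FPKM + 1) it stood at 0.03 (adjusted p = 0.777). Gpx7, of the same compartment, had a log2 fold change of 0.23 (adjusted p = 0.143), and 0.67 under total-count scaling (adjusted p = 0.000456).

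**Figure D2:**
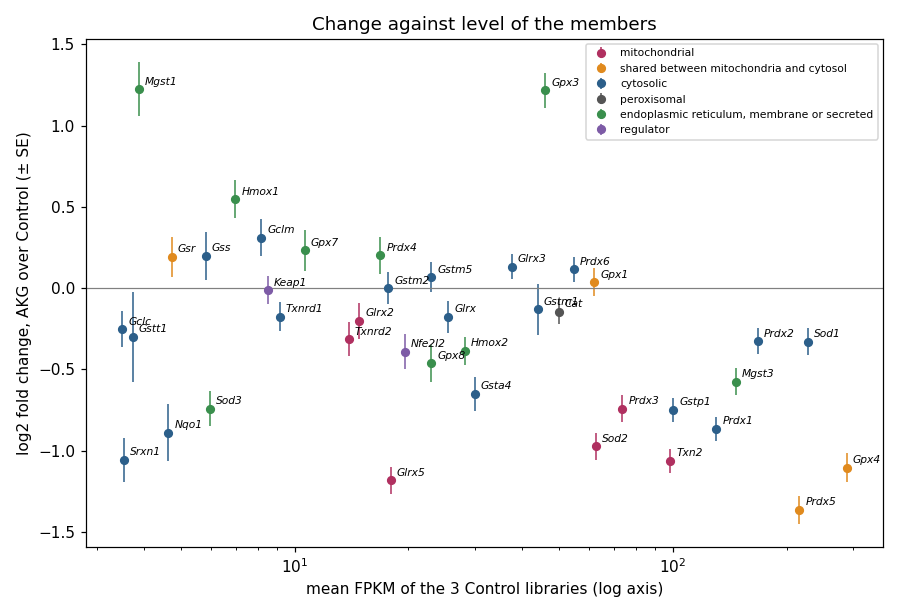
Log2 fold change of each member, AKG over Control, with its SE, against its mean FPKM in the Control libraries on a log axis, coloured by the main site of the protein. Gpx4 and Prdx5, among the most abundant members, had some of the largest falls, and of the 4 members that were higher in AKG, Gpx3 stood at 46.0 FPKM in Control and Mgst1, Hmox1 and Gclm under 10 FPKM.

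Thioredoxins and glutaredoxins are small proteins that reduce disulfides. Of 7 members in this group, which includes the thioredoxin reductases, 3 fell, the mitochondrial Txn2, Glrx5 and Txnrd2, and none rose. Over all tested genes 25.2% fell and 25.0% rose. Under total-count scaling 2 of the 7 were lower and 3 higher, beside 1196 lower and 7431 higher of all 13117 genes. Txn2, the mitochondrial thioredoxin that feeds Prdx3, had 69.3, 75.7 and 68.6 CPM in AKG libraries, against 154, 140 and 152 CPM in Control libraries. Its groups were widely separated (log2 fold change -1.06, SE 0.0757, adjusted p = 1.6e-07). Glrx5, which passes iron-sulfur clusters on in mitochondria, had 24.4, 27.5 and 24.5 CPM in AKG libraries, against 59.1, 56.4 and 57.7 CPM in Control libraries. The libraries of each group were tightly bunched (log2 fold change -1.18, SE 0.083, adjusted p = 1.4e-07). Txnrd2, the mitochondrial thioredoxin reductase, stood at 18.9 ± 2.14 CPM in AKG and 23.4 ± 0.246 CPM in Control (log2 fold change -0.31, adjusted p = 0.0219). That call rested on most libraries being present. Its adjusted p was 0.0618, 0.0506 and 0.0597 without Control replicate 1, 2 and 3, and 0.0871 and 0.0808 without AKG replicate 1 and AKG replicate 2. Under total-count scaling its log2 fold change was 0.13 (adjusted p = 0.349).

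Glrx2, the other mitochondrial glutaredoxin, had log2 fold change -0.20 (adjusted p = 0.15), although its groups did not overlap. The cytosolic Glrx, Glrx3 and Txnrd1 had log2 fold changes of -0.18, 0.13 and -0.18 and did not pass (adjusted p = 0.149, 0.164 and 0.127). Without AKG replicate 3 Glrx was called lower (-0.26, adjusted p = 0.0292) and Glrx3 higher (0.20, adjusted p = 0.0309). Txn1, the cytosolic thioredoxin and not a member, fell to 39.0 CPM in AKG, against 47.2 CPM in Control (log2 fold change -0.28, adjusted p = 0.0108).

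By the main site of the protein, 5 of 6 mitochondrial members fell and none rose, at a median log2 fold change of -0.86. Of 18 cytosolic members 7 fell and 1 rose (median -0.21), and of 4 members shared between the 2 sites 2 fell. The 9 members of the endoplasmic reticulum, membranes or the outside of the cell split into 4 that fell and 3 that rose, with a median of 0.20. The mitochondrial members that fell stood at 83.3% and the cytosolic ones at 38.9%, beside 25.2% that fell and 25.0% that rose over all tested genes. Under total-count scaling, 4 of the 6 mitochondrial members were lower and none higher, while 4 of the 18 cytosolic members were lower and 8 higher. That stands beside 1196 lower and 7431 higher of all 13117 genes, so most genes were higher under that scaling. Among 1594 other tested genes that the deposited table annotates to the mitochondrion, 49.2% were lower, with a median of -0.31. That term is broader than the sites used here: it covers 21 of the 40 members, some of them placed as cytosolic, and 12 of the 21 (57.1%) were lower and 1 higher. The 10 heart muscle markers, of which 9 were lower, had a median of -0.84, and their part in the fall of the mitochondrial members was not tested. In summed level the 6 mitochondrial members stood at 422 ± 22.0 CPM in AKG and 797 ± 34.4 CPM in Control. The 18 cytosolic members stood at 948 ± 43.3 CPM in AKG and 1179 ± 32.9 CPM in Control (SD, n = 3 each).

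Ratios of 2 genes within a library do not depend on the scaling, and 8 were compared. Sod2 over Sod1 was 1.44, 1.58 and 1.77 in AKG libraries, against 2.31, 2.53 and 2.62 in Control libraries. Txn2 over Txn1 was 1.70, 2.01 and 1.78 in AKG libraries, against 3.16, 2.88 and 3.44 in Control libraries. In both pairs the mitochondrial partner was lower relative to the cytosolic one in every AKG library than in any Control. Prdx3 over Prdx1 was 0.603, 0.774 and 0.787 in AKG libraries and 0.630, 0.693 and 0.654 in Control libraries, so these groups overlapped and both partners fell by like amounts. Txnrd2 over Txnrd1 and Glrx2 over Glrx overlapped between groups too, with log2 differences of -0.14 and -0.02. Gpx1 over Gpx4 was 0.467, 0.407 and 0.509 in AKG libraries, against 0.205, 0.204 and 0.214 in Control libraries, the widest gap of the 8, 2.21-fold. The 5 ratios whose groups did not overlap, with Gclc over Gclm and Hmox1 over Hmox2, each had an exact two-sided permutation p of 0.1 (0.16 adjusted over 8), the smallest that 3 against 3 libraries allow. The other 3 had exact permutation p = 0.4, 0.4 and 0.8.

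**Figure D3:**
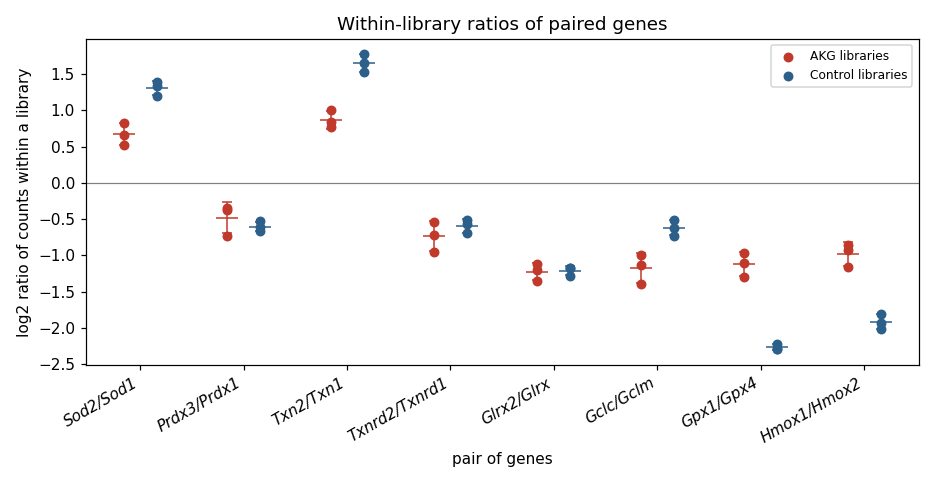
Log2 ratio of the deposited counts of 2 genes within each library, for 8 pairs, in AKG (red, left) and Control (blue, right) libraries, with mean and SD as bars. The groups do not overlap for Sod2/Sod1, Txn2/Txn1, Gclc/Gclm, Gpx1/Gpx4 and Hmox1/Hmox2, and overlap for the other 3 pairs.

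Of 4 members for making and recycling glutathione, 1 rose (25%) and none fell, at a median log2 fold change of 0.20. Over all tested genes 25.0% rose and 25.2% fell. Under total-count scaling 3 were higher, at a median of 0.64, beside 7431 higher of all 13117 genes, at a median of 0.45. Gclm, the modifier subunit of the rate-limiting ligase, had 23.6, 30.9 and 25.4 CPM in AKG libraries, against 20.3, 23.2 and 20.8 CPM in Control libraries. The groups were separated by only 0.38 CPM between AKG 1 and Control 2, and the log2 fold change was 0.31 (SE 0.113, adjusted p = 0.0344). The call was lost without Control replicate 1 (adjusted p = 0.12), Control replicate 3 (0.103) or AKG replicate 2 (0.161), and with DESeq2 (0.053). Gclc, the catalytic subunit of that ligase, stood at 11.5 to 11.9 CPM in AKG and 13.3 to 14.6 CPM in Control, with no overlap (log2 fold change -0.25, adjusted p = 0.0725). As ratios, Gclc over Gclm was 0.502, 0.380 and 0.454 in AKG libraries and 0.652, 0.604 and 0.702 in Control libraries. Gss, which adds glycine to complete glutathione, and Gsr, which reduces it again with NADPH, had log2 fold changes of 0.20 and 0.19 (adjusted p = 0.279 and 0.215). Under total-count scaling Gclm, Gss and Gsr were all called higher, and with AKG 2 alone Gss was (0.45, adjusted p = 0.0287).

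The 31 other tested genes of the deposited pathway for glutathione metabolism held 6 that rose (19.4%) and 7 that fell (22.6%), with a median of -0.12. These shares were near the 25.0% that rose and 25.2% that fell over all tested genes. Among those that fell were Ggct and Chac2, which break glutathione down, at 1.58 and 3.41 CPM in AKG, against 5.87 and 11.1 CPM in Control. Idh2, a mitochondrial source of NADPH that makes AKG, was another gene of the pathway that rose, at 1312 CPM in AKG and 967 CPM in Control (log2 fold change 0.44, adjusted p = 0.000884).

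The glutathione transferases, which attach glutathione to reactive compounds, held falls of Gstp1, Gsta4 and Mgst3 and a rise of Mgst1 among 8 members. That is 37.5% lower and 12.5% higher, beside 25.2% lower and 25.0% higher over all tested genes. Mgst1, a transferase of the endoplasmic reticulum and the outer mitochondrial membrane, had 8.71, 9.44 and 11.5 CPM in AKG libraries, against 4.49, 4.35 and 3.83 CPM in Control libraries. Every AKG library lay well above the Controls (log2 fold change 1.22, SE 0.167, adjusted p = 4.66e-05). Gstp1 had 56.7, 60.8 and 54.0 CPM in AKG libraries, against 93.3, 93.1 and 102 CPM in Control libraries. The groups were clearly separated (log2 fold change -0.75, SE 0.0757, adjusted p = 3.35e-06). Gstp1 shares 62.3% of its 50-base words with Gstp2, which was lower too, at 3.27 CPM in AKG and 5.40 CPM in Control (adjusted p = 0.0211). Gsta4, which clears the lipid peroxidation product hydroxynonenal, fell by 0.65 on the log2 scale (adjusted p = 0.000176), and Mgst3, a membrane transferase, by 0.57 (8.42e-05).

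Under total-count scaling the log2 fold changes shrank to -0.21 for Gsta4 and -0.13 for Mgst3, and neither passed (adjusted p = 0.0973 and 0.225). Gstm1 had 44.9, 70.2 and 65.9 CPM in AKG libraries, against 65.5, 62.9 and 69.6 CPM in Control libraries, so AKG 1 alone was low. Without AKG replicate 1 its log2 fold change was 0.05 in place of -0.13. Gstm1 shares 33.0% of its 50-base words with other genes, and 24.3% with the pseudogene Gstm2-ps1. Gstm2, Gstm5 and Gstt1 had log2 fold changes of 0.00, 0.07 and -0.30 and did not pass, although Gstm2 (0.44) and Gstm5 (0.51) were called higher under total-count scaling. With that scaling 3 of the 8 transferases were higher and 1 lower, beside 7431 higher and 1196 lower of all 13117 genes.

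Markers of other cell types were set beside the 3 stable rises. The summed level of 12 fibroblast markers was 3221 to 4244 CPM in AKG and 3362 to 4230 CPM in Control, with 3 higher and 5 lower. That of 10 markers of macrophages, which are rich in heme oxygenase, was 90.6 to 117 CPM in AKG and 137 to 213 CPM in Control, with none higher and 4 lower. That of 8 neutrophil markers was 5.62 to 12.5 CPM in AKG and 0.957 to 1.57 CPM in Control. All 4 neutrophil markers that could be tested rose, but each had at most 5 counts in any Control library. They passed the filter on low counts only through the AKG libraries. A marker with so few Control counts could be tested only if it was higher in AKG. Ly6g, which defines neutrophils, was at 0 counts in all libraries. The part of these cell types in the rises of Gpx3, Mgst1 and Hmox1 was not tested. The 10 endothelial markers summed to 2255 to 2849 CPM in AKG and 2460 to 2710 CPM in Control, with 3 higher and 3 lower. The 10 smooth muscle and pericyte markers summed to 1969 to 2184 CPM in AKG and 3121 to 3265 CPM in Control, with none higher and 7 lower. The shares higher and lower were 25% and 41.7% for fibroblast markers and 30% and 30% for endothelial markers. The share lower was 40% for macrophage markers and 70% for smooth muscle and pericyte markers. Over all tested genes 25.0% were higher and 25.2% lower.

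Of 10 members known as NRF2 targets, Srxn1, Nqo1, Prdx1 and Gsta4 fell and Hmox1 and Gclm rose, and the median log2 fold change was -0.21. That is 40% lower and 20% higher, beside 25.2% lower and 25.0% higher over all tested genes, and whether the targets differ from other genes was not tested. Under total-count scaling Srxn1, Nqo1 and Prdx1 were still lower, and Hmox1, Gclm, Gsr and Txnrd1 were higher. With that scaling 1196 genes were lower and 7431 higher of all 13117. Nqo1, the quinone reductase often used as a reporter of NRF2, had 4.44, 4.60 and 4.61 CPM in AKG libraries, against 8.71, 6.83 and 9.79 CPM in Control libraries. Control 2 was the lowest Control but still above all AKG libraries (log2 fold change -0.89, SE 0.175, adjusted p = 0.000845). Hmox1, the inducible heme oxygenase, had 18.2, 17.8 and 19.9 CPM in AKG libraries, against 11.4, 12.4 and 14.5 CPM in Control libraries. The AKG libraries were all higher (log2 fold change 0.55, SE 0.117, adjusted p = 0.00156). Its constitutive relative Hmox2 fell by 0.39 on the log2 scale (adjusted p = 0.00192), and stood at 0.06 under total-count scaling (0.625). Since 40.2% of the exon bases of Hmox2 overlap Cdip1 on the opposite strand, its count is uncertain. Hmox1 over Hmox2 was 0.528, 0.445 and 0.553 in AKG libraries and 0.248, 0.261 and 0.286 in Control libraries.

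Nfe2l2 itself had 36.1, 42.6 and 50.4 CPM in AKG libraries, against 55.8, 57.9 and 55.5 CPM in Control libraries. The AKG libraries were spread widely below the tightly grouped Controls. Nfe2l2 fell by 0.39 on the log2 scale (SE 0.105, adjusted p = 0.00744), a direction that turned under total-count scaling (0.06, adjusted p = 0.709). Keap1, the adaptor that marks NRF2 for destruction, stood at 31.7 ± 1.47 CPM in AKG and 32.0 ± 1.73 CPM in Control (adjusted p = 0.92), and at 0.43 under total-count scaling (0.00147). Of 10 other regulators of this system, 6 rose (60%) and 2 fell (20%), beside 25.0% and 25.2% over all tested genes. Under total-count scaling 7 were higher and none lower, beside 7431 higher and 1196 lower of all 13117 genes. Sqstm1 and Mafg are counted here and again among the other NRF2 targets below. Those that rose included Sqstm1, the autophagy adaptor that can displace KEAP1 (341 CPM in AKG, 185 CPM in Control, log2 fold change 0.88), Cul3, the ligase scaffold that works with KEAP1 (121 CPM in AKG, 89.7 CPM in Control), Maff, a small MAF partner of NRF2, and Bach1, a repressor at the same DNA element. Maff stood at 7.49 CPM in AKG and 3.73 CPM in Control. Rbx1, the ring subunit of that ligase, fell to 39.6 CPM in AKG, against 55.0 CPM in Control. Mafg, another small MAF gene, fell to 49.8 CPM in AKG, against 65.3 CPM in Control (log2 fold change -0.39, adjusted p = 0.00241).

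Of 26 other known NRF2 targets, 22 were tested, 10 fell (45.5%) and 2 rose (9.1%), at a median log2 fold change of -0.27. Over all tested genes 25.2% fell and 25.0% rose. Under total-count scaling 2 were lower, Abcc1 and Osgin1, and 8 higher, beside 1196 lower and 7431 higher of all 13117 genes. Abcc1, an exporter of glutathione conjugates, had 18.9, 22.0 and 23.0 CPM in AKG libraries, against 50.1, 40.8 and 47.8 CPM in Control libraries. The pentose phosphate enzyme gene Taldo1 fell to 48.8 CPM in AKG, against 77.4 CPM in Control, and malic enzyme Me1 to 49.9 CPM in AKG, against 71.9 CPM in Control. Osgin1, a growth inhibitor induced by oxidative stress, fell to 0.559 CPM in AKG, against 2.09 CPM in Control. It rested on 9 to 10 counts in each AKG library. The other rise was of Ftl1, the light chain of the iron store ferritin, at 310 CPM in AKG and 253 CPM in Control. The heavy chain Fth1 fell to 730 CPM in AKG, against 912 CPM in Control, and was not among the calls under total-count scaling.

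**Figure D4:**
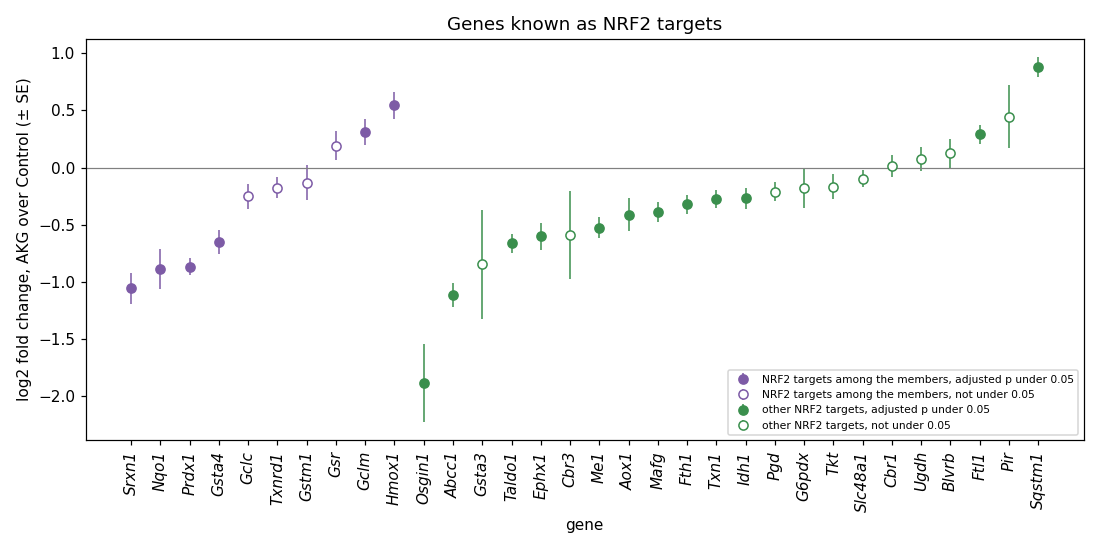
Log2 fold change, AKG over Control, with its SE for the 10 NRF2 targets among the members (purple) and the 22 tested other targets (green), filled where the adjusted p was under 0.05. Osgin1 lies lowest (-1.89), Abcc1, Srxn1, Nqo1 and Prdx1 lie low, and Hmox1 and Sqstm1 lie high.

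Promoter stretches that hold the core of the antioxidant response element are shown for 5 members, because genes that carry it rose, fell and did neither. The sequences are from RefSeq (GRCm38.p6, sense strand of the gene, 250 bases before to 50 after each start), and 34 of the 40 members had an entry. The letters TGACNNNGC were searched on both strands, and a match, here always on the opposite strand, is in capitals.
Gclm (chr3:122245387-122245467, + strand): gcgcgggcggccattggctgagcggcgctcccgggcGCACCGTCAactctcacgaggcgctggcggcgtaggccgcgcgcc
Prdx1 (chr4:116685430-116685510, + strand): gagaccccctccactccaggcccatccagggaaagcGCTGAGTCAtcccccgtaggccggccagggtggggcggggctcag
Txnrd1 (chr10:82859078-82859158, + strand): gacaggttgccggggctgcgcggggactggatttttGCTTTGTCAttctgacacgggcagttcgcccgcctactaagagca
Mgst1 (chr6:138140435-138140515, + strand): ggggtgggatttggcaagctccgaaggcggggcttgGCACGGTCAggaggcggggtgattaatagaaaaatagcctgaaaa
Srxn1 (chr2:152105542-152105570, + strand): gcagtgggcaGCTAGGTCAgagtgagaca
The match began 134 bases before the start in Gclm, 133 in Prdx1, 92 in Txnrd1 and 56 in Mgst1, and at base 29 after it in Srxn1. Sod1, Nfe2l2 and Gstm5 held a match as well. Of these 8 genes 4 fell, 2 rose and 2 did not pass, while over all tested genes 25.2% fell and 25.0% rose. Among the 4 that fell, Sod1 and Nfe2l2 changed sign under total-count scaling. The 8 were 23.5% of the members with an entry, and the letters occurred for 17.1% of 10301 tested genes with an entry and in 12.4% of all 32851 windows. Of the 6 NRF2 targets among the members with an entry, 4 held the letters. A match is a description of these windows and not a shown binding site.

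Of 33 other tested genes of thiol and peroxide metabolism 7 were higher (21.2%) and 11 lower (33.3%), near the 25.0% and 25.2% of all tested genes. Under total-count scaling 15 were higher and 5 lower, beside 7431 higher and 1196 lower of all 13117 genes. Txnip, which binds and blocks thioredoxin, had 1154, 1087 and 1205 CPM in AKG libraries, against 620, 612 and 574 CPM in Control libraries. It rose in all AKG libraries by a similar amount (log2 fold change 0.93, SE 0.0846, adjusted p = 1.32e-06). Nnt, the mitochondrial transhydrogenase that makes NADPH, had 167, 168 and 182 CPM in AKG libraries, against 91.9, 112 and 120 CPM in Control libraries (log2 fold change 0.68). Msrb1, a selenoprotein that repairs oxidised methionine, had 13.3, 14.9 and 14.9 CPM in AKG libraries, against 50.8, 53.6 and 64.0 CPM in Control libraries. Its fall, 1.97 on the log2 scale (SE 0.106, adjusted p = 1.96e-08), was larger than that of any of the 40 members. Park7, a redox-sensitive chaperone, fell to 46.5 CPM in AKG, against 93.6 CPM in Control, and Romo1, of the mitochondrial inner membrane, to 10.3 CPM in AKG, against 23.5 CPM in Control.

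By level per transcript length the most abundant members in Control were Gpx4 (289 FPKM), Sod1 (228), Prdx5 (216), Prdx2 (168), Mgst3 (147) and Prdx1 (130). In AKG the order was Sod1 (246 FPKM), Gpx4 (180), Prdx2 (178), Gpx3 (146), Mgst3 (135) and Prdx5 (113). Gpx3 stood at 146 ± 26.8 FPKM in AKG and 46.0 ± 3.68 FPKM in Control (SD, n = 3 each). The AKG values of Gpx4 (173 to 189 FPKM) and Prdx2 (166 to 186 FPKM) overlapped, and so did those of Gpx3 (115 to 161 FPKM) and Mgst3 (123 to 146 FPKM). FPKM carries the same shift as total counts, and 14 members have a sign in the authors' deposited log2 ratios that differs from that of the count test. At a false discovery rate under 0.05 in the authors' deposited table, 21 members were called, 8 with a ratio above 1 and 13 below, and 5 of these had the other sign in the count test: Sod1, Gpx8, Prdx2, Hmox2 and Nfe2l2.

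**Figure D5:**
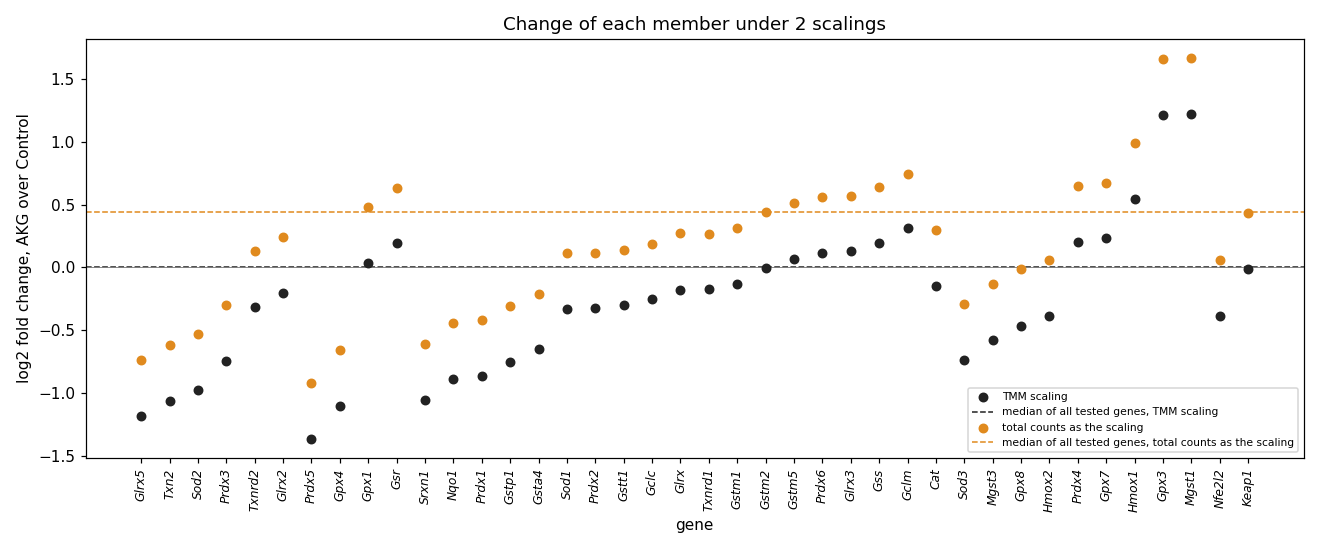
Log2 fold change of each member, AKG over Control, with TMM scaling (black) and under total-count scaling (orange); dashed lines mark the median of all tested genes under each. Each gene shifts by about the same amount as the median of all genes, which crosses 0 for genes such as Sod1, Prdx2 and Nfe2l2 and leaves Prdx5, Glrx5 and Gpx4 below 0 and Gpx3, Mgst1 and Hmox1 above.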

How the data were processed

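RNA-seq counts of 6 libraries, 3 AKG and 3 Control by their titles, were analysed. The authors deposited 1 table with an estimated count (whole numbers), FPKM for each gene in each library, group means, the log2 ratio of mean FPKM, and p-values with false discovery rates. HISAT2 2.1.0, RSEM 1.2.19 and DESeq2 1.20.0 are named per the submitters' processing notes; their roles, the genome build and the annotation are not given in the sources used here. Rows without a symbol (30, 3.95e-05% of counts) were left out.

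Genes were filtered with filterByExpr (minimum count 10, minimum total 15), scaled by TMM and tested with edgeR 4.0.16 (R 4.3.3), a quasi-likelihood test with robust dispersions. P-values were adjusted by Benjamini-Hochberg over all 13117 tested genes, and an adjusted p without a named tool is from this test. SE is the absolute log2 fold change over the root of F. Means carry the SD over 3 libraries, and 3 counts correspond to 0.166 to 0.221 CPM. Alternatives were other scalings and filters, DESeq2 1.42.0, limma 3.58.1 with voom and on log2 FPKM with pseudocounts of 1 and 0.1, the replicate block and left-out libraries. The members, their sites, the lists and the rule for named genes (all members, up to 6 called genes of each list by smallest p) were chosen with earlier results of these data known. Some genes within the rule are not named, and the pathway and mitochondrion terms were taken up after the files were seen. Ftl1, Fth1, Idh2, Chac2, Rbx1, Ggt5, Ggt7, Chac1 and Mafg were chosen after their values were seen.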

Additional observations from a re-analysis of the deposited data

How the results depend on the processing

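The calls turned mainly on the scaling, and the cause of each change below was not tested. Of 800 member values in the alternatives, 664 kept direction and side of the threshold, 30 lost the call, 39 gained one and 67 changed sign. The 4 settings that follow are given in the order total-count scaling, limma on log2(FPKM + 1), on log2(FPKM + 0.1), and on log2(FPKM + 1) with no filter. Genes higher in AKG numbered 7431, 6732, 6725 and 6895, and genes lower 1196, 1068, 1067 and 1141, beside 3281 and 3309 with TMM. Members higher numbered 17, 16, 16 and 16, and members lower 11, 10, 10 and 10. Cytosolic members higher numbered 8, 7, 7 and 7, and lower 4 in each. Members outside the mitochondrial and cytosolic groups higher numbered 9 in each, and lower 3, 2, 2 and 2. Other NRF2 targets higher numbered 8, 7, 7 and 7, and lower 2, 1, 1 and 1. Other redox genes higher numbered 15, 14, 14 and 13, and lower 5, 5, 5 and 4, and 7 were lower with AKG 2 alone. The single rise of a cytosolic member, Gclm, was lost with upper-quartile scaling, DESeq2 and limma-voom (0 higher), and 2 were higher with AKG 2 alone.

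Signs changed as follows. Under total-count scaling the log2 fold changes were 0.11 for Sod1, 0.30 for Cat, 0.12 for Prdx2, 0.27 for Txnrd1, 0.13 for Txnrd2, 0.27 for Glrx, 0.24 for Glrx2, 0.057 for Hmox2, 0.19 for Gclc, 0.057 for Nfe2l2, 0.43 for Keap1, 0.31 for Gstm1, 0.44 for Gstm2 and 0.14 for Gstt1. On log2(FPKM + 1), with or without the filter, they were 0.11 for Sod1, 0.29 for Cat, 0.035 for Gpx8, 0.081 for Prdx2, 0.28 for Txnrd1, 0.25 for Glrx, 0.21 for Glrx2, 0.15 for Gclc, 0.039 for Nfe2l2, 0.39 for Keap1, 0.28 for Gstm1, 0.42 for Gstm2 and 0.10 for Gstt1. On log2(FPKM + 0.1) they were 0.11 for Sod1, 0.30 for Cat, 0.036 for Gpx8, 0.081 for Prdx2, 0.30 for Txnrd1, 0.26 for Glrx, 0.22 for Glrx2, 0.19 for Gclc, 0.041 for Nfe2l2, 0.43 for Keap1, 0.29 for Gstm1, 0.44 for Gstm2 and 0.12 for Gstt1. With AKG 2 alone they were -0.0018 for Gpx1, 0.095 for Gstm1, 0.080 for Gstm2 and 0.034 for Gstt1. Gstm2, at 0.00 with TMM, was 0.00065 with RLE scaling, 0.00064 with DESeq2 and 0.0090 with no filter on low counts.

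With each library left out in turn, 3 to 6 members were higher and 18 to 21 lower. Over all tested genes 2750 to 3296 were higher and 2846 to 3243 lower in these fits. In them 0 to 2 cytosolic members and 1 to 2 other NRF2 targets were higher. Log2 fold changes then ranged from -0.026 to 0.13 for Gpx1, -0.053 to 0.032 for Keap1, -0.24 to 0.052 for Gstm1 and -0.051 to 0.056 for Gstm2, and the log2 difference in the ratio Glrx2/Glrx from -0.066 to 0.048. With the replicate number as a block, 4 members were higher and 19 lower, and 3257 genes were higher and 3314 lower. Same-numbered libraries had correlations of 0.18, -0.06 and 0.06 in their deviations, only the first pair was its own best match, and the numbers were not taken to pair the libraries. With 3 libraries a group, an exact test of a single ratio cannot reach 0.05. Some transcripts rest on few counts, such as Osgin1, with 9 to 10 counts in each AKG library, and Ggct, with 23 to 34. Among lowly expressed members, Gstt1 had 43 to 73 counts in a library, Nqo1 74 to 133 and Srxn1 85 to 184.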
